A study of Mus musculus with 8 samples.

Results

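The genes described here are 41 interferon-stimulated genes, whose transcription rises when a cell senses interferon. They were chosen by name, and a gene entered when the deposited table of regions carried its symbol as the nearest gene. The table held 40 of them, of 18707 gene symbols in all, and Ifi44 had no row. These 40 genes owned 248 of the 129304 regions of 800 bp. The mark profiled was H3K27ac, histone H3 acetylated at lysine 27, which is found at enhancers and promoters in use, and the assay was ChIP-seq of microglial nuclei from C57BL/6 mice. The WT group was wild type, and the GrnKO group lacked Grn, the gene of progranulin, a secreted protein that is delivered to lysosomes. All mice were 2 years old, and nuclei came from frozen hemibrains after perfusion, sorted for the myeloid factor PU.1 and against OLIG2 and NEUN, proteins of oligodendrocyte lineage cells and neurons. Each genotype had 2 H3K27ac libraries and 2 input libraries, which are sonicated chromatin without immunoprecipitation. Each library came from nuclei of 2 mice that were pooled, so the spread between replicates is a spread between pools.

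Type I interferons bind a receptor at the cell surface whose kinases phosphorylate STAT2. It joins IRF9 in a complex that binds a DNA element called the ISRE at the promoters of responding genes, while interferon gamma acts through an element called GAS. The products detect viral nucleic acid, block viral entry, translation and assembly, or feed back on the pathway. In microglia the programme is held low at rest, and a subset of cells that carries it is known from aged and diseased brain.

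Sequences are shown first for some of the promoters described below, because they show which of them carry these elements. They are RefSeq promoters of build GRCm38.p6, from 250 bases before the start site to 50 bases after it. Capitals mark the ISRE core, searched as GAAA, any 2 bases and GAAA on one strand or TTTC, any 2 bases and TTTC on the other, and the GAS core, searched as TTCNNNGAA, which reads the same on both strands. A match is a description of letters and not a shown binding site. Gbp7 lies at chr3:142530086-142530385 on the plus strand, the Gbp3 promoter at chr3:142559794-142560093, and Gbp2 at chr3:142620413-142620712, both also on the plus strand. Isg15 lies at chr4:156200769-156201068 on the minus strand, Slfn2 at chr11:83064862-83065161 on the plus strand and Lgals3bp at chr11:118401910-118402209 on the minus strand.
Gbp7: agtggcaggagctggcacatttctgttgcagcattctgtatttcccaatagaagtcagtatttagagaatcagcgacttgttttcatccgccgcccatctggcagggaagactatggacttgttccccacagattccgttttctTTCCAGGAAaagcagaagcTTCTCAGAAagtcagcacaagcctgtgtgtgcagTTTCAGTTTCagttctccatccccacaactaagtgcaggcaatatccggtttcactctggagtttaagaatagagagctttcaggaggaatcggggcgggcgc
Gbp3: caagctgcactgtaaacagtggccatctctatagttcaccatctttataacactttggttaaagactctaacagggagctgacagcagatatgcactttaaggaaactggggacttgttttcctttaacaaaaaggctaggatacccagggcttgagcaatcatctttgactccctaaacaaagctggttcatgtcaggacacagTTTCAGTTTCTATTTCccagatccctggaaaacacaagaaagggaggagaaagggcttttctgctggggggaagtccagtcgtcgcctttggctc
Gbp2: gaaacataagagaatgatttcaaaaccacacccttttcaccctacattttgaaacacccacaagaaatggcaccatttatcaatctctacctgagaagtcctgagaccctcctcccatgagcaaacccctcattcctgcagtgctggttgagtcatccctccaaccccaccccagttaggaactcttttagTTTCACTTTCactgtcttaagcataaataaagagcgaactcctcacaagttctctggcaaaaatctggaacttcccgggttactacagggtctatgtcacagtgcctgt
Isg15: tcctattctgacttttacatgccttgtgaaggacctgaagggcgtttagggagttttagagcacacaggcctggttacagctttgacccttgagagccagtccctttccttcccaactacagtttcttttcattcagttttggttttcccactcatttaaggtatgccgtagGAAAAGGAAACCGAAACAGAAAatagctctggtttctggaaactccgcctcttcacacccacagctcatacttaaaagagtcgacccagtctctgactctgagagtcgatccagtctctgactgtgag
Slfn2: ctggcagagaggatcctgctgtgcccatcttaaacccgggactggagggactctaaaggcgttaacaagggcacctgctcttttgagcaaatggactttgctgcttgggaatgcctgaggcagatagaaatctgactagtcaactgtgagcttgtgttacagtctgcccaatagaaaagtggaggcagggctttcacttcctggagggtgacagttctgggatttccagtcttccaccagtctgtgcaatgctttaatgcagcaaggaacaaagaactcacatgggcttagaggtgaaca
Lgals3bp: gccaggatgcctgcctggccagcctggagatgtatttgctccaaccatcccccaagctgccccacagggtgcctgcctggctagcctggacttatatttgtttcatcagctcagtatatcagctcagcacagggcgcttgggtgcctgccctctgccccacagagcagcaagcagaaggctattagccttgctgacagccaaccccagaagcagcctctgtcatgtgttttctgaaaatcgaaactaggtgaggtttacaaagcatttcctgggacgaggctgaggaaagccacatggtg

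The 3 Gbp promoters, whose genes encode guanylate-binding GTPases of one cluster, each held, as printed, an ISRE core close to the start site, beginning 53 bases upstream in Gbp7, 45 in Gbp3 and 59 in Gbp2. Gbp3 has another RefSeq promoter, at chr3:142560106-142560405, which held none of the motifs searched. Gbp7 held 2 GAS cores as well. In Isg15 the capitals cover 3 ISRE cores that overlap each other. Slfn2 and Lgals3bp held neither core in this window. Slfn2 held a related composite word of ETS and IRF factors, searched as GGAA, any 2 bases and GAAA or its reverse TTTC, any 2 bases and TTCC, beginning 59 bases upstream. Of the 41 genes, 32 were matched to a RefSeq promoter. An ISRE core lay in 17 of the 32 genes, against 3.99% of all genes, and in 18 of their 39 promoters, against 3.44% of all 32851 promoters of the same length. A GAS core lay in 9 of the 32 genes, against 9.55% of all genes (8.30% of all promoters), and it overlapped an ISRE core in Bst2 and Ifitm3. The composite word lay in 7 of the 32 genes, against 3.16% of all genes (2.72% of all promoters), and overlapped an ISRE core in Stat2 and Igtp.

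The 4 H3K27ac libraries held 15491642.5 to 20030832 tags and the 4 inputs 4078179 to 14415969. WT replicate 1 stood apart, with 49.4% of its tags in the listed regions, against 63.3% to 65.7% in the other H3K27ac libraries. Counts of calls and the changes of called genes are therefore also given without it, as are some other changes that it moved. The calls of cell type markers and the changes of single called regions are given only with it. The targeted gene matched the labels, since 2 promoter regions of Grn held 186 to 357 normalised tags in WT and 0 in both GrnKO libraries. The sort was checked against 10 defining markers of microglia such as Tmem119, P2ry12 and Cx3cr1, all of them in the table, whose summed signal was 57693 and 61513 normalised tags in WT and 46601 and 47822 in GrnKO. Among these 10 markers, 7 passed the test as lower in GrnKO and 0 as higher, where 5.88% and 8.59% of all genes did. The sums of 4 other lists were higher in both GrnKO libraries than in both WT libraries: border macrophage markers (1214 to 1261 in WT, 1541 to 1696 in GrnKO, 7 of 7 in the table), endothelial markers (1493 to 1685, and 2040 to 2257, 4 of 5), B and T cell markers (356 to 399, and 758 to 911, 6 of 8) and plasmacytoid dendritic cell markers (3674 to 3850, and 4258 to 4588, 3 of 4). Those of monocytes, neurons, oligodendrocytes and astrocytes were lower in both GrnKO libraries, and that of neutrophils overlapped. Gene by gene, 1 of 7 tested border macrophage markers and 1 of 4 endothelial markers passed as higher. So did 2 of 3 tested B and T cell markers and 1 of 2 of plasmacytoid dendritic cells. In each of these lists 0 passed as lower, and a summed rise is thus not a rise of every marker. At promoters the B and T cell sum did not exceed 2.74 normalised tags in any H3K27ac library. The part of these cell types in the results below was not tested. In sorted nuclei taken as bulk, fewer cells with a mark and less of the mark per cell cannot be told apart.

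Normalised tags are tags at a library total of 10000000, after TMM factors of 0.825 to 1.08. A promoter region is one whose centre lies within 1000 bp of a start site, and tags in regions that overlap are counted in each. The 40 genes had 74 promoter regions in 38 genes and 174 distal regions in 33 genes, and 31 genes had both. Ifit1, whose protein binds viral RNA, and Ifitm3, which blocks viral entry, had no promoter region. All 38 promoter sums passed the filter on low tags. Of the 33 distal sums 27 passed, and those of Stat2, Ifit1, Ifit2, Oasl2, Mx2 and Gbp7 did not. Many of these genes sit together in clusters: Gbp7, Gbp3 and Gbp2 on chromosome 3, Parp14, Dtx3l and Parp9 on chromosome 16, Mx1 and Mx2 on chromosome 16, the Ifit genes on chromosome 19, Oasl2 and Oasl1 on chromosome 5, and Rsad2 and Cmpk2 on chromosome 12. Within the Gbp, Mx, Ifit and Oasl families the members are similar in sequence, how reads that map to several places were treated is not given in the sources used here, and the division of tags among them is uncertain.

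Levels per region differed widely among the promoters in WT. Irgm1, an immunity-related GTPase of vacuole membranes, was highest with 317 and 363 normalised tags per 800 bp region. Mx2, a GTPase that blocks virus replication, followed with 223 and 287, and Igtp, a GTPase related to Irgm1, with 167 and 186. Irgm1, Mx2 and Igtp did not overlap each other, while Igtp overlapped the next in the order, Parp14, with 173 and 167. At the other end stood Ifi27l2a with 18.0 and 8.12, Cmpk2, a mitochondrial nucleotide kinase, with 3.13 and 10.5, and Ifit2 with 2.15 and 4.06. The libraries of Cmpk2 overlapped those of Ifi27l2a and of Ifit2. Ifi27l2a also overlapped the next in the order, Rsad2, with 16.6 and 9.56. The median over the 74 promoter regions was 59.8 in WT, above the 25.6 of all 28205 promoter regions. The median over the 174 distal regions was 6.17, below the 8.10 of all 100939 distal regions. Among distal regions those of Ifitm3 and Slfn2 were high, with 194 and 97.5 normalised tags per region in WT.

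At promoters, the comparison asked whether acetylation of the interferon programme differs in microglia without Grn. Lgals3bp and Slfn2 were higher in GrnKO, and Parp14 and Gbp7 were lower, at an adjusted p under 0.05 (limma, Benjamini-Hochberg over 11084 genes). Among all genes tested 5.23% were called, 3.57% as higher and 1.66% as lower, so 2 of 38 in each direction is a count near that background. Of the 38 genes 28 had a negative and 10 a positive log2 change, and their median was -0.23, against -0.02 over all genes. Without WT replicate 2 these medians were -0.43 and -0.03. Overlap, here and in the counts below, was counted after TMM factors only. Both GrnKO libraries lay below both WT libraries in 17 of the 38 (44.7%), against 24.6% of all genes, and above them in 6 (15.8%), against 23.4%. The groups overlapped in the other 15. Without WT replicate 1 the counts were 2 higher and 3 lower, with a median of -0.10, while 6.62% and 3.64% of all genes were called. Without WT replicate 2 they were 3 and 8 (8.68% and 5.87% of all genes), without GrnKO replicate 1 they were 1 and 0 (1.07% and 0.415%), and without GrnKO replicate 2 they were 0 and 1 (1.42% and 0.632%). The counts over all genes thus moved with the library left out as well. Without the filter on low tags limma called 1 of all 13959 genes and 0 of the 38. At an unadjusted p under 0.05 there were 3 higher and 11 lower, where 1933 of all genes passed in either direction. With the input subtracted limma called 0 of all 11084 and so 0 of the 38. At an unadjusted p under 0.05 it gave 0 higher and 2 lower, where 779 of all genes passed. On the deposited scaling alone, without TMM factors, the median of all genes moved from -0.02 to 0.20. On that scale 0 of the 38 were called lower, where 0.180% of all genes were, and the same 2 genes stayed higher. At an unadjusted p under 0.05 limma gave 4 as higher and 1 as lower, where 1769 of all 11084 genes passed. Of the 38 changes 19 were positive, with a median of -0.00379.

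**Figure D1:**
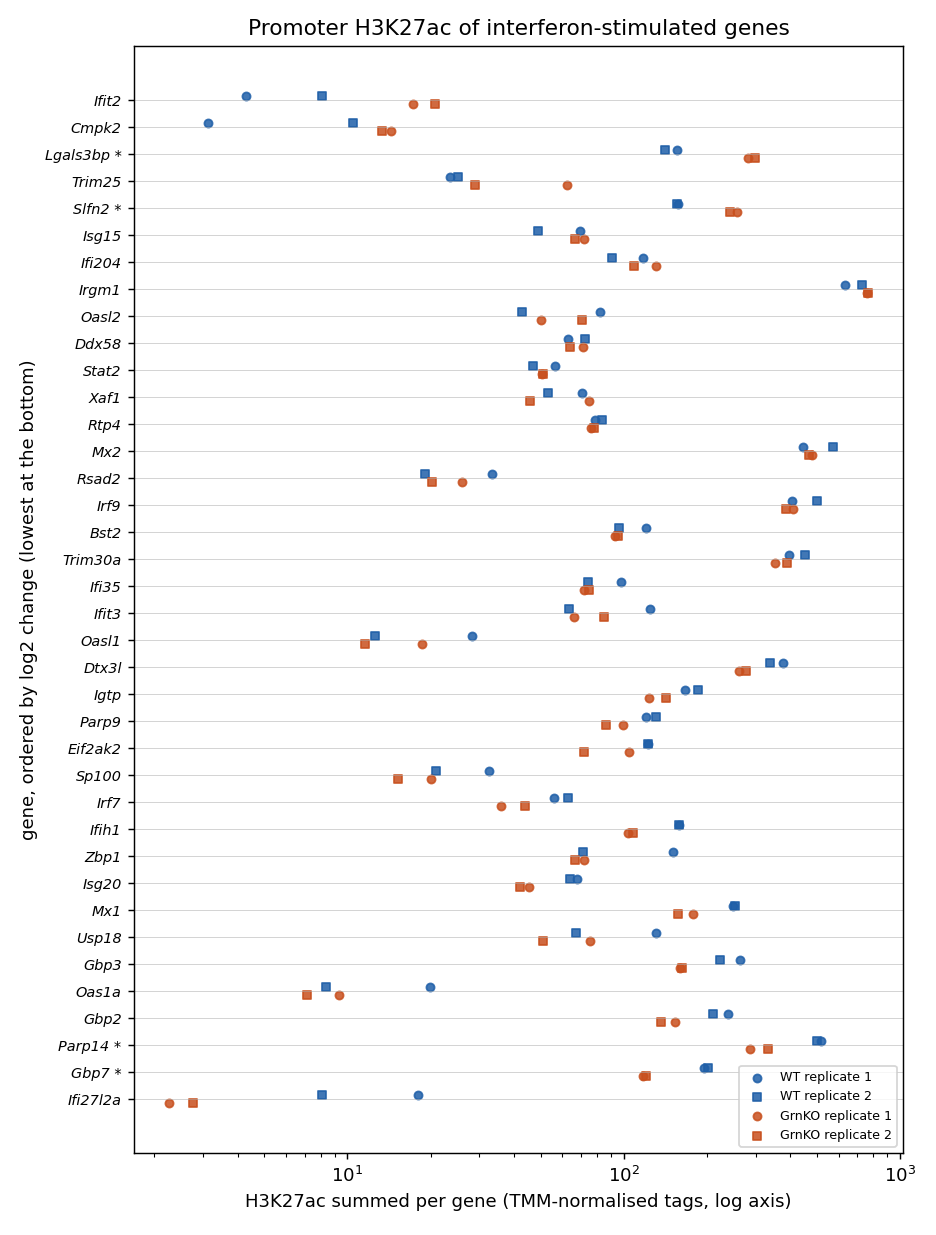
Promoter H3K27ac of the 38 genes, in TMM-normalised tags summed per gene on a log axis, with 1 point for each H3K27ac library (blue WT, orange GrnKO, circles replicate 1, squares replicate 2). Genes are ordered by log2 change, stars mark the 4 with adjusted p under 0.05, and both GrnKO points lie left of both WT points in 17 rows.

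Lgals3bp encodes a secreted glycoprotein that binds galectins. Its promoter sum was 156 and 141 normalised tags in WT and 283 and 299 in GrnKO. Both GrnKO libraries were about equal and well above both WT libraries. The log2 change was 0.97 (SE 0.18, limma adjusted p = 0.0036), and 1.04 without WT replicate 1 (limma adjusted p = 4.79e-06). Slfn2, a Schlafen protein known for keeping T cells and monocytes quiescent, had 157 and 156 in WT against 257 and 242 in GrnKO. The groups did not overlap, with a log2 change of 0.67 (SE 0.18, limma adjusted p = 0.041), also 0.67 without WT replicate 1. With the window set to 500 bp the Slfn2 change was 0.46 (limma adjusted p = 0.297) and with 2000 bp it was 0.16 (0.639), both past the threshold no longer. Without GrnKO replicate 2 neither gene passed (limma adjusted p = 0.0812 for Lgals3bp and 0.268 for Slfn2), and without GrnKO replicate 1 Slfn2 did not (0.437).

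Parp14, an ADP-ribosyltransferase that acts in macrophage polarisation and antiviral defence, showed the opposite pattern. Its sum was 520 and 501 normalised tags in WT and 287 and 332 in GrnKO. Both GrnKO libraries were clearly below WT, with a log2 change of -0.72 (SE 0.15, limma adjusted p = 0.007), and -0.70 without WT replicate 1. Its neighbours Dtx3l, a ubiquitin ligase, and Parp9, its partner, had 377 and 340 against 261 and 278, and 120 and 131 against 99.6 and 86.5. Neither passed the threshold, with limma adjusted p values of 0.164 and 0.351. Gbp7 had 196 and 201 in WT and 117 and 121 in GrnKO, with little spread in either group. Its log2 change was -0.73 (SE 0.20, limma adjusted p = 0.041), and -0.75 without WT replicate 1. It missed the threshold when regions overlapping one kept before them along the chromosome were left out (-0.61, limma adjusted p = 0.127). The same held with a window of 500 bp (-0.88, limma adjusted p = 0.0823). Without GrnKO replicate 1 neither Parp14 nor Gbp7 passed (limma adjusted p = 0.164 and 0.331), and without GrnKO replicate 2 Gbp7 did not (0.249).

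The other Gbp promoters shown above lay close to Gbp7 in value. Gbp2 had 239 and 211 in WT and 154 and 136 in GrnKO, with a log2 change of -0.63 (SE 0.19, limma adjusted p = 0.071). Gbp3 had 264 and 224 in WT and 159 and 163 in GrnKO, with a log2 change of -0.59 (SE 0.19, limma adjusted p = 0.080). In both genes the groups did not overlap, and neither passed the threshold. The related GTPase Igtp had 167 and 186 against 123 and 143 (-0.41, limma adjusted p = 0.309). Irgm1 went the other way, with 635 and 726 against 761 and 767 (0.17, limma adjusted p = 0.501). Of the changes in these 5 GTPase genes Irgm1 alone was positive, where 47.9% of all genes were.

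**Figure D2:**
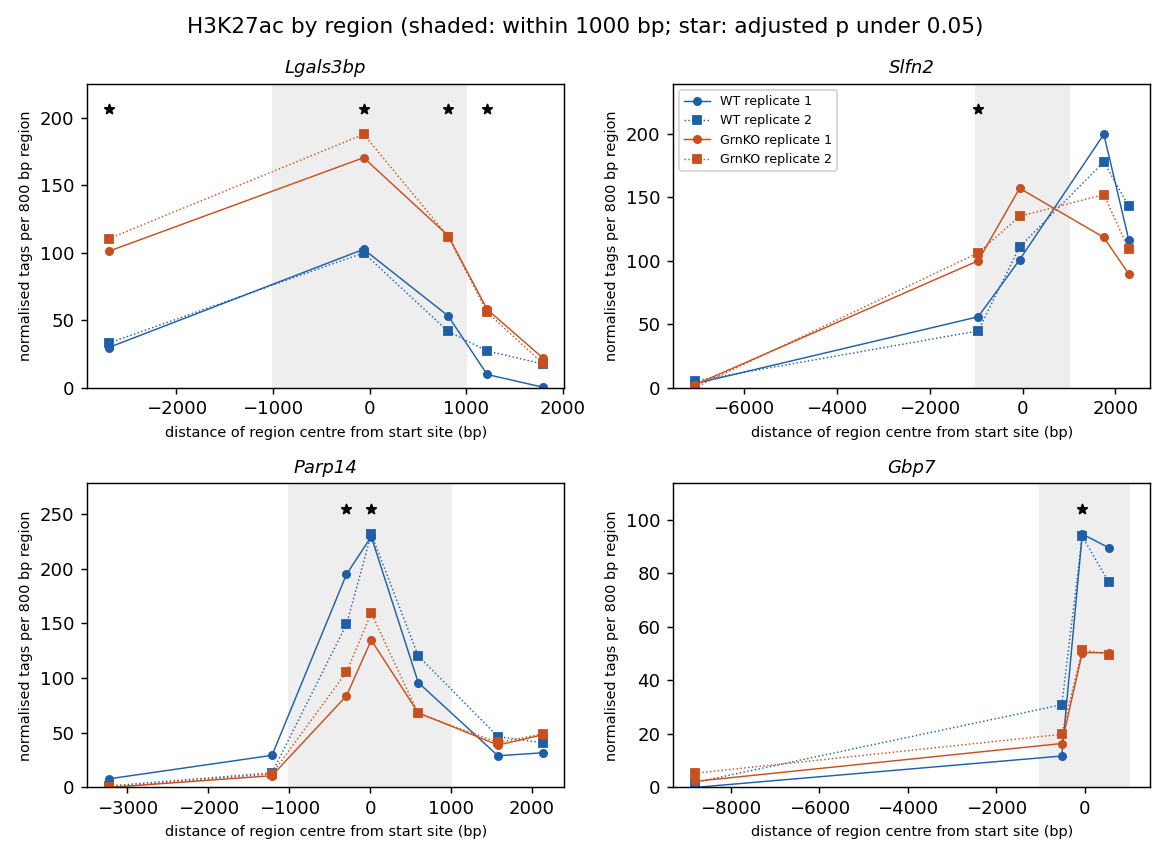
Normalised tags in each 800 bp region against the distance of its centre from the start site, for Lgals3bp, Slfn2, Parp14 and Gbp7 within 10000 bp, with 1 line for each H3K27ac library and the promoter window shaded. Stars mark regions with adjusted p under 0.05; the orange GrnKO lines lie above the blue WT lines in the starred regions of Lgals3bp and Slfn2 and below them in those of Parp14 and Gbp7.

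The transcription factors of the pathway were not called. Irf7, the factor that amplifies interferon production, had 55.9 and 62.6 normalised tags in WT and 35.9 and 43.8 in GrnKO. Both GrnKO libraries were lower, yet the log2 change of -0.56 had an SE of 0.32 (limma adjusted p = 0.378). Irf9 had 406 and 501 in WT and 410 and 387 in GrnKO, which overlap, with a log2 change of -0.18 (limma adjusted p = 0.583). This change was 0.05 on the deposited scaling, -0.33 without WT replicate 1 and -0.03 without WT replicate 2. Stat2 had 56.3 and 46.9 in WT and 50.6 and 51.0 in GrnKO, which lie between the WT libraries. Its log2 change of -0.02 (SE 0.31, limma adjusted p = 0.987) was 0.11 without WT replicate 1 and 0.21 on the deposited scaling.

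The nucleic acid sensors form a group of 5, too few to read against the 5.23% of all genes called at promoters, and none of them passed the threshold there. Ifih1, the RNA sensor MDA5, had 159 and 158 in WT and 104 and 108 in GrnKO (-0.58, limma adjusted p = 0.143). Ddx58, the RNA sensor RIG-I, had 63.0 and 72.3 against 71.3 and 63.9, with no difference beyond the spread. Eif2ak2, the kinase PKR that stops translation on double-stranded RNA, had 123 and 123 against 104 and 71.7 (-0.50, limma adjusted p = 0.307). Its change was -0.77 without GrnKO replicate 1 and -0.23 without GrnKO replicate 2. Zbp1, a sensor of Z-form nucleic acid, had 151 and 71.5 against 71.6 and 66.9, with a change of -0.58 (limma adjusted p = 0.349) that was -0.05 without WT replicate 1. The PYHIN protein Ifi204 had a change of 0.20 with overlapping groups.

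The antiviral effectors spread in both directions. The lowest and the highest promoter changes of all 38 belonged to genes with few tags. Ifi27l2a had 18.0 and 8.12 in WT and 2.26 and 2.77 in GrnKO (-1.91, SE 0.87, limma adjusted p = 0.256). Ifit2, of a family of proteins that bind viral RNA, had 4.30 and 8.12 in WT and 17.3 and 20.8 in GrnKO (1.52, SE 0.64, limma adjusted p = 0.215). Cmpk2 had 3.13 and 10.5 in WT and 14.4 and 13.4 in GrnKO (1.11, SE 0.73, limma adjusted p = 0.460), a change that was 0.38 without WT replicate 1 and 1.85 without WT replicate 2. None of the 3 passed the threshold, and 3 tags correspond to 1.38 to 2.35 normalised tags in these libraries. Mx1 had 249 and 253 against 179 and 157, without overlap (-0.58, limma adjusted p = 0.078), and its neighbour Mx2 had 447 and 575 against 479 and 470, with overlap (-0.09). The Mx2 change was -0.28 without WT replicate 1 and turned to 0.09 without WT replicate 2. Of the genes around the ubiquitin-like modifier Isg15, Isg15 itself had 69.2 and 49.0 against 71.6 and 66.7 (0.24), and Usp18, the protease that removes it, had a change of -0.58. The groups of both genes overlapped, and without WT replicate 1 the changes were 0.49 in Isg15 and -0.10 in Usp18. The genes of the OAS family of antiviral proteins all had overlapping groups, with changes of -0.61 in Oas1a, -0.34 in Oasl1 and 0.01 in Oasl2. Without WT replicate 1 these were -0.03, 0.21 and 0.47. The ligase gene Trim25 had 23.5 and 25.1 against 62.2 and 28.8 (0.78, limma adjusted p = 0.349), where 1 GrnKO library was much higher than the other and the change was 0.24 without it. Among the remaining promoters, those of Isg20, Sp100, Trim30a, Bst2 and Rtp4 lay below WT without overlap, with changes from -0.58 to -0.07. On the deposited scaling Isg20 and Sp100 stayed negative, while the change was 0.025 in Trim30a, 0.035 in Bst2 and 0.15 in Rtp4. Both GrnKO libraries of Bst2 lay above both WT libraries on that scale. The groups of Ifit3, Ifi35, Rsad2 and Xaf1 overlapped. Without WT replicate 1 the sign of the promoter change turned in Oasl1, Ifit3 (from -0.24 to 0.24), Rsad2 (from -0.13 to 0.25), Xaf1 (from -0.07 to 0.14), Stat2 and Ddx58 (to -0.10).

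The motif content of the promoters was set beside these changes as a description. Of the 17 genes with an ISRE core 15 had a tested promoter sum, with 3 positive and 12 negative changes and a median of -0.24. Of the 15 genes without it 14 were tested, with 6 positive and 8 negative changes and a median of -0.12. Gbp7 was the only called gene with an ISRE core, and Lgals3bp and Slfn2 had none. The promoter of Parp14 was not in the sequence table.

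At distal regions, Lgals3bp was higher and Ifitm3 and Zbp1 were lower in GrnKO. Of all 11368 genes tested there 18.1% were called (10.9% higher, 7.13% lower), so 3 of 27 is a smaller share than that background. The median of the 27 genes was -0.20, against -0.06 over all genes. These medians were -0.085 and -0.026 without WT replicate 1, and -0.27 and -0.086 without WT replicate 2. Both GrnKO libraries lay below both WT libraries in 10 (37.0%, against 30.7% of all genes) and above them in 6 (22.2%, against 27.4%). Without WT replicate 1 there were 2 calls as higher and 3 as lower, against 14.4% and 9.59% of all genes. Without GrnKO replicate 1 or 2 there were 1 as higher and 0 as lower, against 3.21% and 0.880% or 4.32% and 1.99% of all genes. With the deposited scaling 1 gene was called higher and 0 lower, where 1.13% of all genes were lower. At an unadjusted p under 0.05 limma gave 4 as higher and 0 as lower, where 2808 of all 11368 genes passed. The medians on that scale were 0.02 for the 27 genes and 0.16 for all.

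**Figure D3:**
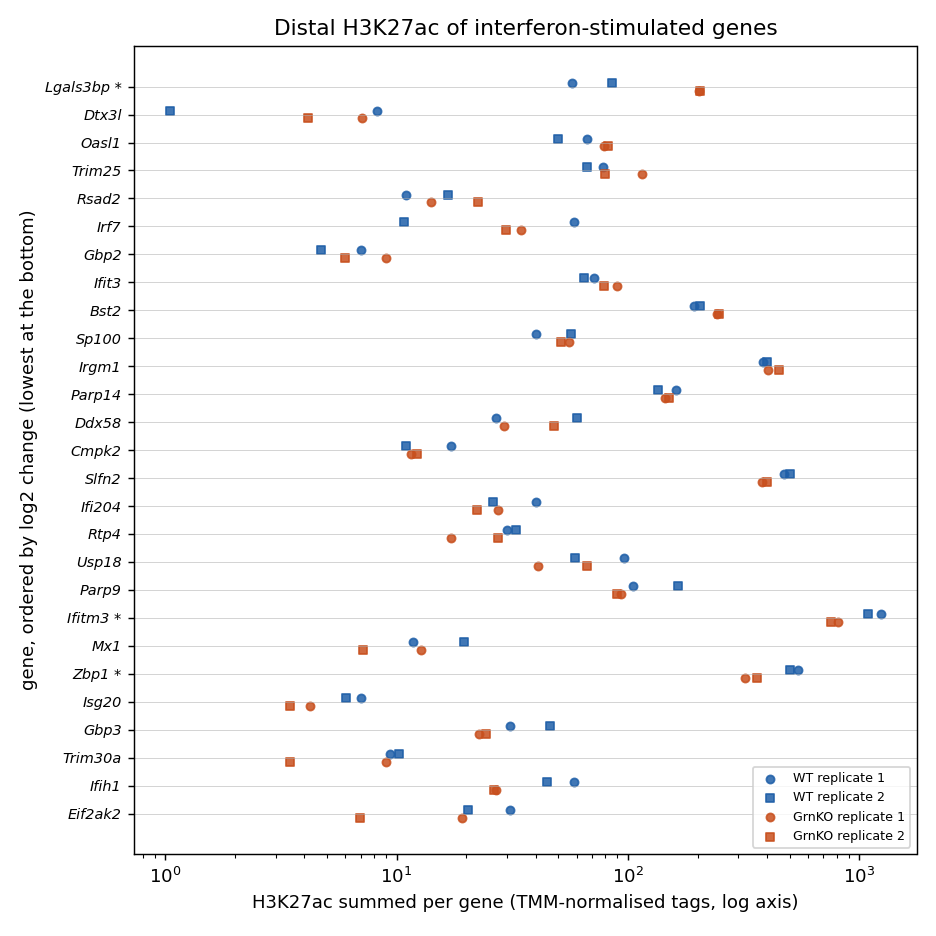
Distal H3K27ac of the 27 tested genes, in TMM-normalised tags summed per gene on a log axis, with 1 point for each H3K27ac library (blue WT, orange GrnKO, circles replicate 1, squares replicate 2). Genes are ordered by log2 change and stars mark the 3 with adjusted p under 0.05; Ifitm3 has the highest sums and both of its GrnKO points lie left of WT.

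The distal sum of Lgals3bp was 57.5 and 85.6 normalised tags in WT and 203 and 205 in GrnKO. This was the largest rise among the 27 genes, with a log2 change of 1.53 (SE 0.25, limma adjusted p = 0.00147), and 1.25 without WT replicate 1. The inputs held 0 and 5.35 scaled tags over these regions in WT and 33.6 and 108 in GrnKO. With the input subtracted on the log2 scale the change turned to -3.08 (limma adjusted p = 0.893), and neither Ifitm3 (-3.29) nor Zbp1 (-0.04) was called. That fit called 0 of all 11368 genes, so a missing call in it says nothing about these genes. The Ifitm3 sum was 1241 and 1089 in WT and 810 and 755 in GrnKO, both GrnKO libraries well below WT. Its log2 change was -0.57 (SE 0.12, limma adjusted p = 0.00546), and -0.48 without WT replicate 1. Without GrnKO replicate 1 or 2 neither Ifitm3 (limma adjusted p = 0.057 and 0.0892) nor Zbp1 passed (0.188 and 0.0656). Zbp1 had 545 and 503 in WT and 320 and 360 in GrnKO (-0.63, SE 0.14, limma adjusted p = 0.0114), with a change of -0.57 without WT replicate 1. Of the 45 distal regions given to Zbp1, 39 lie inside its neighbour Pmepa1, a membrane adaptor gene, and these held 504 and 494 in WT against 313 and 350 in GrnKO. The other 6 held 41.1 and 9.69 against 6.79 and 9.46. When regions inside another gene were left out, the change of Zbp1 was -1.23 and not past the threshold (limma adjusted p = 0.263). This alternative was chosen after seeing the data. The Zbp1 regions also carried 104 to 416 scaled tags in the inputs.

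Of the other distal sums, the lowest changes were those of Eif2ak2 with 30.9 and 20.4 in WT and 19.2 and 6.92 in GrnKO (-1.05, limma adjusted p = 0.245, from -1.72 to -0.37 with a GrnKO library left out), Ifih1 with 58.3 and 44.5 against 26.9 and 26.3 (-0.91, limma adjusted p = 0.103), and Trim30a with 9.39 and 10.2 against 9.05 and 3.46 (-0.69, limma adjusted p = 0.581, from -1.27 to -0.10 likewise). None of them passed. At the upper end after Lgals3bp stood Dtx3l with 8.21 and 1.05 against 7.07 and 4.15 (0.57, limma adjusted p = 0.752, from -0.51 to 1.69 with a WT library left out). Oasl1 followed with 66.9 and 49.8 against 78.6 and 81.7 (0.47, limma adjusted p = 0.298, from 0.26 to 0.68 likewise). The distal sum of Irf7 was 58.3 and 10.7 in WT and 34.5 and 29.8 in GrnKO. Both GrnKO libraries thus lay between 2 WT libraries that differed widely, and the log2 change of 0.33 (SE 0.62, limma adjusted p = 0.776) was 1.5 without WT replicate 1 (limma adjusted p = 0.0227) and -0.84 without WT replicate 2.

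Single regions showed where in each gene the difference lay. Of all 80728 tested regions 9.71% were called (6.80% higher, 2.92% lower), and of the 165 tested regions of the interferon genes 5 were called higher and 6 lower. These counts were 8 and 12 without WT replicate 1 (10.6% and 5.45% of all regions), 8 and 19 without WT replicate 2 (9666 and 4731 of all 80728 regions), 1 and 2 without GrnKO replicate 1 (1.43% and 0.245%), and 1 and 0 without GrnKO replicate 2 (1.81% and 0.515%). The median log2 change was -0.21 over these 165 and -0.00203 over all regions. Of the 5 higher regions 4 belonged to Lgals3bp. The intergenic region at chr11:118404259-118405059, centred at -2700 bp, upstream of the start site, had 29.7 and 33.0 normalised tags in WT and 101 and 110 in GrnKO (1.72, SE 0.27, limma adjusted p = 0.001). The region at the start site, chr11:118401620-118402420, which overlaps the promoter printed above, had 102 and 99.8 against 170 and 188 (0.82, SE 0.19, limma adjusted p = 0.011). Of a pair of overlapping regions in an intron, the one centred 813 bp downstream had 53.2 and 41.6 against 113 and 112 (1.24, SE 0.25, limma adjusted p = 0.004). The other, centred 1217 bp downstream, had 9.78 and 27.2 against 58.0 and 55.8 (1.73, SE 0.42, limma adjusted p = 0.014). The called regions lay on both sides of the start site. In Slfn2 the called region, chr11:83063755-83064555, was centred at -957 bp, outside the printed sequence, with 55.9 and 44.8 against 100.1 and 106 (1.03, SE 0.25, limma adjusted p = 0.014). The 2 Slfn2 regions in its intron, centred 1749 and 2287 bp downstream, had changes of -0.49 and -0.38 and were not called.

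The lower regions lay in 4 genes. In Gbp7 it was the region at the start site, chr3:142529883-142530683, which holds the ISRE and GAS cores shown, with 94.6 and 93.8 in WT and 50.3 and 51.4 in GrnKO (-0.88, SE 0.25, limma adjusted p = 0.033). In Gbp3 it was chr3:142559331-142560131, which also covers its ISRE cores, with 81.3 and 61.8 against 33.7 and 29.3 (-1.15, SE 0.30, limma adjusted p = 0.021). In Parp14 a pair of overlapping regions at the start site, chr16:35870968-35871768 and chr16:35871274-35872074, had 229 and 232 against 135 and 159, and 195 and 149 against 83.7 and 105. Their changes were -0.65 (SE 0.17, limma adjusted p = 0.023) and -0.85 (SE 0.21, limma adjusted p = 0.016). In Ifitm3 a pair of overlapping intergenic regions, centred 11246 and 11694 bp from the start site, had 456 and 364 against 255 and 206, and 486 and 430 against 323 and 269. Their changes were -0.83 (SE 0.16, limma adjusted p = 0.002) and -0.63 (SE 0.14, limma adjusted p = 0.008). The 5 higher regions were also called on the deposited scaling, and 0 lower ones were, where 0.412% of all regions were called lower. At an unadjusted p under 0.05 limma gave 15 as higher and 7 as lower, where 16714 of all 80728 regions passed.

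Summed over all regions of a gene, 1 gene was higher and 7 were lower of 39 tested. Among all 15380 genes 14.5% were called (8.59% higher, 5.88% lower). The GrnKO libraries lay below WT without overlap in 17 of the 39 genes (43.6%, against 29.4% of all) and above in 6 (15.4%, against 25.4%). The higher gene was Lgals3bp, with 213 and 227 normalised tags in WT and 486 and 505 in GrnKO (1.17, SE 0.15, limma adjusted p = 2.06e-04). The lower ones were Parp14, Ifitm3, Zbp1 and Gbp7, named above, and Gbp3, Ifih1 and Mx1. Gbp3 had 294 and 270 against 182 and 187 (-0.61, SE 0.17, limma adjusted p = 0.029). Ifih1 had 217 and 203 against 130 and 135 (-0.66, SE 0.19, limma adjusted p = 0.034). Mx1 had 261 and 273 against 191 and 164 (-0.59, SE 0.18, limma adjusted p = 0.042). Without WT replicate 1 the changes were 1.12 in Lgals3bp, -0.55 in Gbp3, -0.61 in Ifih1 and -0.62 in Mx1. The call of Mx1 ended with DESeq2 on recovered tags (adjusted p = 0.0537). It also ended when regions overlapping one kept before them were left out (limma adjusted p = 0.0756). In each of these 3 lower genes the WT libraries were close together and both GrnKO libraries lay below them. The median over the 39 genes was -0.18, against -0.05 over all, and without WT replicate 1 there were 1 higher and 8 lower calls (12.1% and 8.99% of all genes). Without WT replicate 2 there were 2 and 10 (1992 and 1726 of all 15380 genes), without GrnKO replicate 1 there were 1 and 1 (3.62% and 1.42%), and without GrnKO replicate 2 also 1 and 1 (4.33% and 2.45%). Lgals3bp was the only call on the deposited scaling, and 0 genes were lower, where 1.08% of all were. At an unadjusted p under 0.05 limma gave 3 as higher and 0 as lower, where 3334 of all 15380 genes passed. The medians on that scale were 0.04 and 0.18.

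Whether promoter and distal change differ within a gene was tested directly. Of 7324 genes with both sums 0.451% were called (0.164% with a positive and 0.287% with a negative difference), and of the 26 interferon genes among them 0 were called (limma, 1 higher and 1 lower at an unadjusted p under 0.05; 1 was called higher without WT replicate 1 and 1 without WT replicate 2, against 1.46% and 2.88% of all genes). Of all 7324 genes 1126 passed at an unadjusted p under 0.05 in the limma test, in either direction. The largest difference in p was that of Slfn2, whose promoter change of 0.67 stood beside a distal change of -0.32 (472.8 and 502 in WT, 381 and 401 in GrnKO). The difference was 0.99 (SE 0.21, limma adjusted p = 0.076), and its sum over all regions was nearly level between genotypes, with a log2 change of -0.01. Parp14 had a promoter change of -0.72 and a distal change of 0.00161, a difference of -0.72 (SE 0.23, limma adjusted p = 0.199). Lgals3bp rose in both, with a difference of -0.56 (SE 0.32, limma adjusted p = 0.453).

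**Figure D4:**
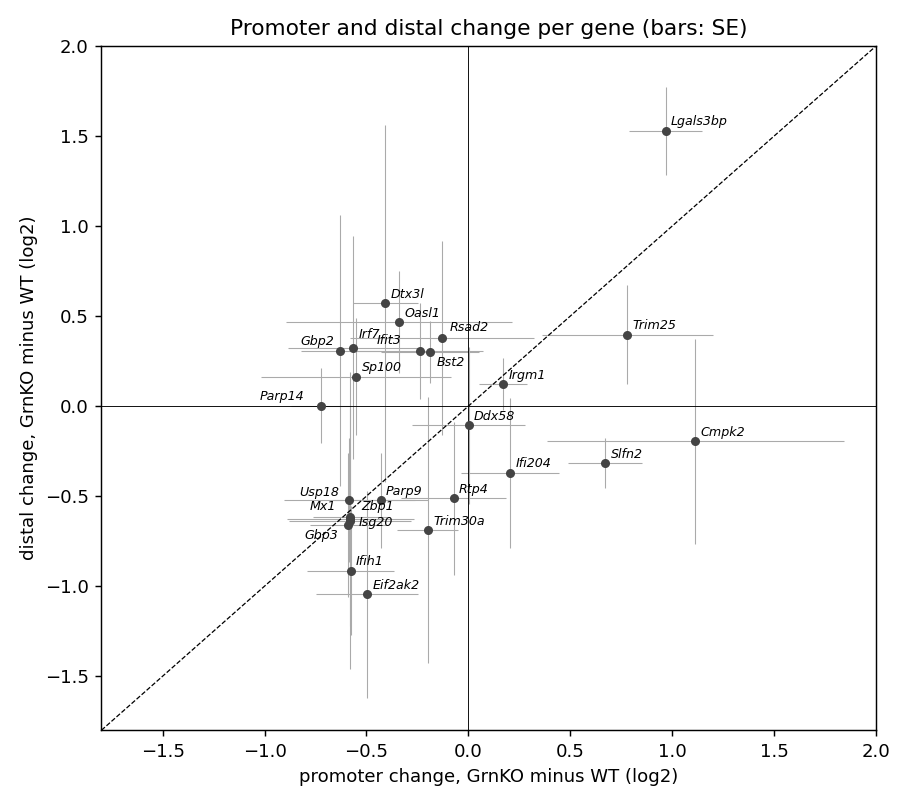
Promoter change (horizontal) against distal change (vertical) of the 26 genes with both sums tested, as log2 of GrnKO over WT with SE bars and a dashed line of equal change. Lgals3bp stands alone at 0.97 and 1.53, Slfn2 lies right of the line at 0.67 and -0.32, and Parp14 lies left of it at -0.72 and 0.00161.

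**Figure D5:**
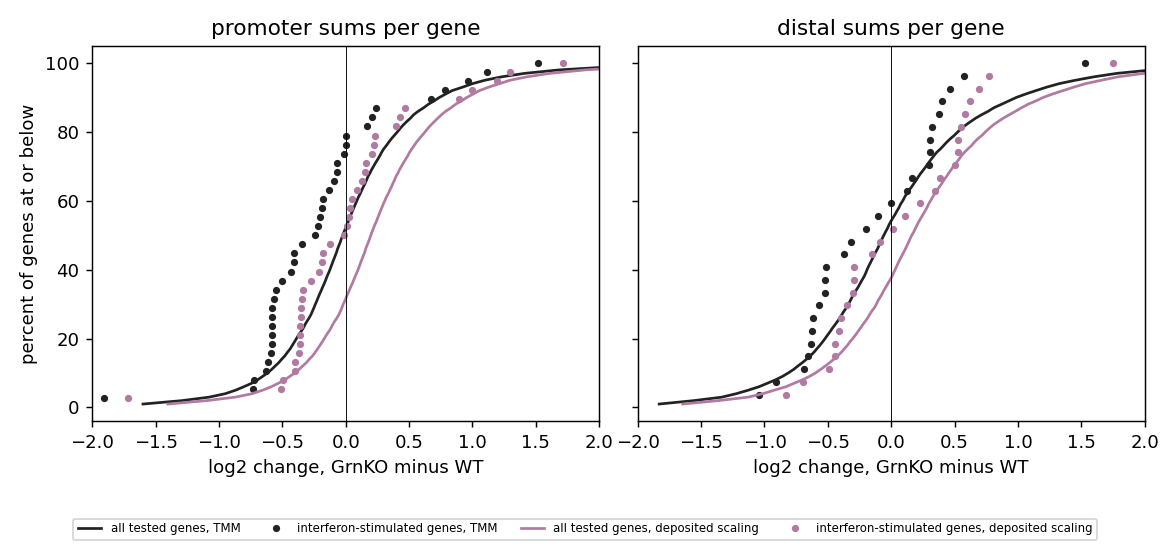
Cumulative share of genes by log2 change at promoters (left) and distal regions (right), for all tested genes (lines, their percentiles 1 to 99) and the interferon-stimulated genes (points), after TMM factors (black) and on the deposited scaling (purple). Both sets move right on the deposited scaling, at promoters from medians of -0.23 and -0.02 to -0.00379 and 0.20, and the promoter points lie left of the line of their own scaling over most of the range.

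The other genes of the pathway were read from a pair of lists. Of 34 receptors and signalling genes, all tested over all regions, 1 was higher and 5 were lower, against 8.59% and 5.88% of all genes, with a median of -0.16 against -0.05. The higher one was Il10rb, a receptor chain shared with interferon lambda, with 1834 and 1741 normalised tags in WT and 2357 and 2183 in GrnKO (0.34, limma adjusted p = 0.021). The lower ones with the smallest p were Tmem173, the adaptor STING (2850 and 2779 against 1988 and 2121, -0.45, limma adjusted p = 0.003), Tbk1, the kinase that activates IRF3 (1352 and 1380 against 985 and 987, -0.47, limma adjusted p = 0.007), and Tlr3, a receptor of double-stranded RNA (1113 and 1057 against 787 and 739, -0.51, limma adjusted p = 0.007). In these genes the groups did not overlap. The list had 2 higher and 5 lower calls without WT replicate 1 (12.1% and 8.99% of all genes), with changes of 0.38 in Il10rb, -0.44 in Tmem173, -0.49 in Tbk1 and -0.47 in Tlr3. At promoters alone, at an unadjusted p under 0.05, limma gave 3 of the 34 as higher and 7 as lower. Of all 11084 genes 2018 passed at that threshold in either direction. At the adjusted threshold 0 of the 34 were called, where 3.57% of all genes were higher and 1.66% lower. Leaving out WT replicate 1 gave 2 higher and 0 lower promoters there, against 6.62% and 3.64% of all genes.

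Of 84 further interferon-stimulated genes 76 were in the table and 71 were tested, of which 5 were higher and 7 lower, with a median of -0.17, beside the same shares and median of all genes. The higher ones with the smallest p were Ifi207, a PYHIN protein like Ifi204 (316 and 216 against 596 and 572, 1.16, limma adjusted p = 0.001), Il18bp, a secreted inhibitor of interleukin 18 (236 and 150 against 402 and 356, 1.00, limma adjusted p = 0.005), and the Schlafen gene Slfn5 (69.2 and 56.3 against 130 and 107, 0.91, limma adjusted p = 0.032). The lower ones were led by Trim26, a ubiquitin ligase (446 and 475 against 294 and 307, -0.61, limma adjusted p = 0.012), Parp8 (2728 and 2564 against 2159 and 1946, -0.37, limma adjusted p = 0.014) and Gbp5 (210 and 142 against 85.1 and 102, -0.88, limma adjusted p = 0.026). The list had 6 higher and 6 lower calls without WT replicate 1 (12.1% and 8.99% of all genes). The changes were then 1.43 in Ifi207, 1.33 in Il18bp, 1.05 in Slfn5, -0.66 in Trim26 and -0.32 in Parp8, while Gbp5 at -0.60 no longer passed (limma adjusted p = 0.0832). Both lists held calls in both directions. None of the lower genes named from the lists passed the threshold on the deposited scaling.

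Of the interferon genes 7 lie on chromosome 11, as Grn does, and these include both called as higher at promoters. Lgals3bp lies 16.0 Mb and Slfn2 19.4 Mb from Grn, and the nearest, Ifi35, 0.982 Mb away, had a promoter sum of 97.8 and 74.1 in WT and 71.6 and 74.7 in GrnKO. Xaf1, Igtp, Irgm1 and Trim25, the others on that chromosome, were not called. The promoters of Irgm1 and Trim25 lay above WT without overlap, that of Igtp lay below it, and those of Ifi35 and Xaf1 overlapped. The shares of all genes on chromosome 11 that were called or lay above WT were not counted. The part of sequence linked to the deleted allele was not tested.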

How the data were processed

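H3K27ac and input signal was read from 1 table of 129304 accessible regions. The authors deposited it as signal, tags scaled to 10000000 per library per the file headers. The submitters' processing notes name Bowtie2, HOMER, DESeq2 and build mm10, without versions or roles. Duplicate handling is not given in the sources used here. Multiplying by library totals returned whole read ends for 100% of values (tolerance 0.1 of an end). Of 95988 regions, 91.1% had an implied start site within 10 bp of a RefSeq start in GRCm38.p6, the patch release of mm10.

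Tags were summed per gene over regions within 1000 bp of the start site, beyond it, or all. Sums passing edgeR's filterByExpr (minimum 10) were fitted with limma 3.58.1 (R 4.3.3; genotype only, eBayes with trend) on log2(value + 1) after TMM (edgeR 4.0.16), with p-values adjusted by the Benjamini-Hochberg method over the whole table. This scale understates changes of low values. edgeR's quasi-likelihood test and DESeq2 1.42.0 on recovered tags, other scalings, pseudocounts, windows, filters, a replicate block and leaving out each library were alternatives. Precision is limited to 2 pools per genotype, and floors of 3 tags cover counting error only. Same-numbered replicates are different mice. The genes, their roles and the 2 pathway lists were chosen with earlier results of these data known. Given with all libraries are genes past the threshold, the 3 highest and 3 lowest changes at promoters and distal regions, Irf7, Irf9 and Stat2, regions past the threshold, and from each list the 3 smallest p per direction; other values complete each gene group.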

Additional observations from a re-analysis of the deposited data

How the results depend on the processing

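The 4 promoter calls (2 higher, 2 lower) and the 3 distal calls held in number with edgeR and with DESeq2 on recovered tags, with DESeq2 size factors and with a pseudocount of 5. Among 561 alternative values 426 stayed on the same side of the threshold with the same sign or, as counts, within 1.5 times. On the deposited scaling 0 genes were called lower at promoters, at distal regions and over all regions, and 0 regions were lower (limma; 1, 0, 0 and 7 at an unadjusted p under 0.05), where 0.180%, 1.13%, 1.08% and 0.412% of all features were lower. Without the filter on low tags limma called 0 promoter sums (3 higher and 11 lower at an unadjusted p under 0.05), 0 distal sums (2 and 4), 0 regions (11 and 31) and 0 genes as lower over all regions (11), while of all features it called 1 promoter sum, 333 distal sums, 0 regions (20079 at an unadjusted p under 0.05) and 178 genes as lower over all regions. With the input subtracted on the log2 scale limma called 0 in all 4 fits, with 0 higher and 2 lower promoters, 0 and 3 distal sums, 0 and 5 genes over all regions, and 1 and 7 regions at an unadjusted p under 0.05; it called 0 of all features in these fits too, so these zeros say nothing about the interferon genes. Over all features limma gave these counts at an unadjusted p under 0.05, in either direction. On the deposited scaling they were 1769 of 11084 promoter sums, 2808 of 11368 distal sums, 3334 of 15380 genes and 16714 of 80728 regions. Without the filter they were 1933 of 13959, 3536 of 16018, 3995 of 18707 and 20079 of 129304. With the input subtracted they were 779 promoter sums, 646 distal sums, 887 genes and 6113 regions. A window of 500 bp gave 1 higher and 1 lower promoter (2.24% and 0.947% of all) and a window of 2000 bp 1 higher (4.66%). Leaving out distal regions inside another gene gave 1 lower distal gene (6.52% of all). A pseudocount of 5 gave 1 call as higher in the promoter minus distal test (0.492% of all).

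Leaving out 1 library at a time gave 0 to 3 higher and 0 to 8 lower promoters, 1 to 2 higher and 0 to 3 lower distal genes, 1 to 2 higher and 1 to 10 lower genes over all regions, 1 to 8 higher and 0 to 19 lower regions, and 0 to 1 higher promoter minus distal differences. The counts of 0 for promoters, distal genes and regions came without a GrnKO library and the highest counts without a WT library; fewer samples remain in each, and the lone library of a genotype is assumed to vary like the others. Among promoter calls the alternatives that kept them were 12 of 15 for Lgals3bp, 11 for Parp14, 9 for Slfn2 and 8 for Gbp7. Among distal calls they were 14 of 16 for Lgals3bp, 11 for Ifitm3 and 10 for Zbp1. Over all regions they were 12 of 13 for Lgals3bp, 9 for Ifitm3 and Zbp1, 8 for Gbp3, Ifih1 and Parp14, 7 for Gbp7 and 6 for Mx1. The cause of the other losses was not tested.

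Same-numbered libraries come from different mice, and their deviations correlated with r from 0.030 to 0.059 over all features and from 0.065 to 0.29 over the interferon genes, so the labels' numbers were not taken as a pairing. With a replicate block 5 promoters and 10 regions were lower and 1 promoter minus distal difference was higher, where 3.22% of all promoter sums, 4.94% of all regions and 2.17% of all differences were.

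Some values changed sign, beside the promoters named above as turned without WT replicate 1. On the deposited scaling Irf9 was 0.047 at the promoter and over all regions, and the Stat2 promoter 0.21. The promoters of Bst2, Trim30a, Rtp4, Ifi35, Mx2, Rsad2 and Xaf1 also turned positive on that scale, with changes from 0.01 to 0.16. With 1 library left out in turn the Stat2 promoter ranged from -0.14 to 0.11, Stat2 over all regions from -0.060 to 0.18, distal Irf7 from -0.84 to 1.5 and distal Dtx3l from -0.51 to 1.69. With the input subtracted, distal values were -3.08 for Lgals3bp, 2.15 for Ifih1, 2.29 for Trim30a and -1.75 for Irf7, and values over all regions 2.55 for Ifih1, 0.038 for Zbp1, 0.17 for Parp14 and -3.24 for Lgals3bp. Distal Irf7 was -0.059 with edgeR and -0.024 with DESeq2, and distal Dtx3l -0.34 with a window of 500 bp. With 2 pools per genotype and inputs down to 4078179 tags, changes in low regions such as those of Ifit2, Cmpk2 and Ifi27l2a were not resolved.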

Other observations

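The inputs of the interferon genes were uneven. Of the 38 promoter sums 35 were at 0 in WT input 1, 20 in WT input 2, 14 in GrnKO input 1 and 27 in GrnKO input 2. The highest was Gbp2 in GrnKO input 2, with 241 scaled tags over 4 regions, against 0 in both WT inputs and 1.04 in GrnKO input 1. In the same library Mx1 had 83.7, and in WT input 1 Zbp1 had 65.0 and Rsad2, the antiviral enzyme viperin, 52.7. The H3K27ac signal of Rsad2 was 13.1 normalised tags per promoter region in WT, beside an input mean of 11.1 scaled tags per region. The distal sum of Ifit1 did not pass the filter, with 2.35 and 5.24 normalised tags in WT and 1.41 and 7.38 in GrnKO, and its inputs reached 51.9 scaled tags in WT input 2.

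Beside the ISRE split, 8 of the 9 genes with a GAS core were tested at promoters, with 1 positive and 7 negative changes and a median of -0.45. The 21 tested genes without one had 8 positive and 13 negative changes and a median of -0.13. These are descriptions of a few genes with no test.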
